A study of Mus musculus with 6 samples.

Results

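The genes described here are 40 genes for protein folding and export in the endoplasmic reticulum (ER), chosen by name for what their products do. Earlier results of these data were known when they were chosen. They were followed in bulk RNA-sequencing of 6 cultures labelled as skin endothelial cells (ECs), 3 kept for 48 hours with 5 mmol/L (normal) and 3 with 20 mmol/L glucose (high). All 40 were found among the 55487 gene identifiers of the count table, and all 40 were among the 19015 genes with enough counts to be tested. In this set, 6 genes (15.0%) passed the test between the glucose concentrations, against 31.4% of all tested genes and 40.0% of those at least as abundant as every member except Derl3. The mRNAs of Dnajc10, Ero1l and Canx, which serve disulfide chemistry and glycoprotein folding, fell under high glucose, and those of Xbp1, Sel1l and Mia3 rose. The abundant luminal chaperones Hsp90b1, Calr and Hspa5 did not pass, with log2 fold changes of -0.21, 0.0026 and -0.02. In all, 17 fits were run, which varied the settings or left out a library. Dnajc10 and Ero1l were called in 17, Canx in 15, Xbp1 in 12, Mia3 in 9 and Sel1l in 4. Hsp90b1 was called lower in 8 of these fits, and Calr and Hspa5 were called in 0.

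The ER is where secreted and membrane proteins enter the secretory pathway. Chains pass through the Sec61 translocon, fold with the help of Hsp70 and Hsp90 chaperones, lectin chaperones and disulfide isomerases, and leave in COPII-coated carriers, while chains that fail to fold are returned to the cytosol for degradation. When unfolded chains accumulate, the sensors IRE1 (Ern1), PERK (Eif2ak3) and ATF6 switch on the unfolded protein response, in which spliced Xbp1 mRNA and cleaved ATF6 activate genes of chaperones and of degradation. ECs secrete matrix and von Willebrand factor and depend on this machinery.

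Both groups came from C57BL/6 mice. The cells of an isolation were taken from the skin of 4 to 6 mice aged 2 to 3 months, and they were enriched with beads against CD31, a surface protein of ECs encoded by Pecam1. The labels name no transgene or deletion, and no treatment other than the glucose concentration. The study's legend counts its replicates per group of mice, whereas the growth protocol pools several mice per isolation. The labels do not say whether the 3 samples of a group came from separate mice or isolations, so P values measure the spread between these samples, which may be technical.

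The total counts lay between 120192466 and 146881356 per library. The labelled cell type was checked against its markers. Pecam1 had 19, 12 and 19 counts under normal glucose and 9, 13 and 18 under high glucose, the endothelial genes Tie1, Cldn5 and Emcn had 0 to 9 counts in any library, and 9 of 12 endothelial genes could be tested (2 higher, 3 lower). Eng, which other cell types express as well, had 136 to 166 CPM (counts relative to library size), Flt1 38.3 to 56.6 CPM and Egfl7 9.27 to 11.7 CPM, and the 12 genes summed to 215 to 243 CPM under normal glucose and 194 to 200 CPM under high glucose. Fibroblast markers, 16 genes that include 3 collagen genes, held 5.20% to 5.50% of the counts under normal glucose and 7.90% to 8.29% under high glucose, with 10 of the 16 higher and 4 lower. The summed level of 6 macrophage markers lay between 15.7 and 17.8 CPM under normal glucose and between 25.2 and 26.0 under high glucose. Of the 3 that could be tested, Cd14 was higher (mean 9.47 CPM under normal and 21.1 under high glucose). Csf1r and Cd68 were lower, with log2 fold changes of -0.73 and -0.46. The 6 keratinocyte markers summed to 2.10 to 2.97 CPM under normal and 2.23 to 2.45 under high glucose (2 tested, 1 higher, 0 lower). The 7 mural and smooth muscle markers summed to 617 to 695 and 517 to 543 CPM (1 higher, 5 lower). No listed marker was at 0 in all libraries. Erg had 2 to 15 counts per library. Cdh5 lay between 0.783 and 1.84 CPM, Tek between 1.18 and 2.13, Vwf between 0.628 and 1.12 and Kdr between 4.6 and 5.74. Pecam1, Tie1, Cldn5 and Emcn were thus near 0 in both groups and Cdh5, Tek, Vwf and Erg were low, while Eng and Flt1 were not. The name ECs is used here as the label's name. In bulk samples, fewer cells of a type and less RNA per cell cannot be told apart, and the part of these marker differences in the values below was not tested.

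Levels are given as CPM after scaling by the trimmed mean of M values (TMM), and differences as the log2 fold change of high over normal glucose. Calls rest on edgeR's quasi-likelihood test over all 19015 genes, with a threshold of 0.05 on the P value after Benjamini-Hochberg adjustment. Of the 40 ER genes, 3 were called higher and 3 lower, or 15.0%. Among all tested genes, 31.4% were called, 16.9% higher and 14.5% lower. A share of 40.0% was called among the 6054 genes at least as abundant as every ER gene except Derl3. The share of the ER genes that was called lay below both, and this difference was not tested. The median log2 fold change of the 40 was -0.03, against 0.0062 over all tested genes, and 15 lay above 0 and 25 below. Of the 6054 abundant genes, 3428 lay above 0 and 2626 below, with a median of 0.0364. The SD of the log2 fold changes of the 40 ER genes was 0.15, compared with 0.31 over the 6054 abundant genes and 0.51 over all genes. At an unadjusted P value under 0.05 the counts were 6 higher and 5 lower, beside 4272 and 3763 of the 19015 tested genes. DESeq2 called 5 and 5 of the 40, beside 3116 and 2780 of the tested genes.

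The groups did not overlap for 14 of the 40 genes. High glucose lay wholly above normal for 8 (25.1% of all tested genes did so), namely Hyou1, Xbp1, Atf6, Ern1, Edem2, Sel1l, Sec24d and Mia3. High glucose lay wholly below normal for 6 (21.3% of all tested genes), namely Hsp90b1, Dnajc10, Canx, Ero1l, Herpud1 and Derl1. The share of all counts held by the 40 genes was 1.36% to 1.47% under normal glucose and 1.20% to 1.27% under high glucose. On the TMM scale, their summed level was 13401 ± 601 CPM under normal glucose and 12870 ± 438 CPM under high glucose (SD, n = 3 each), and these values overlapped.

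**Figure D1:**
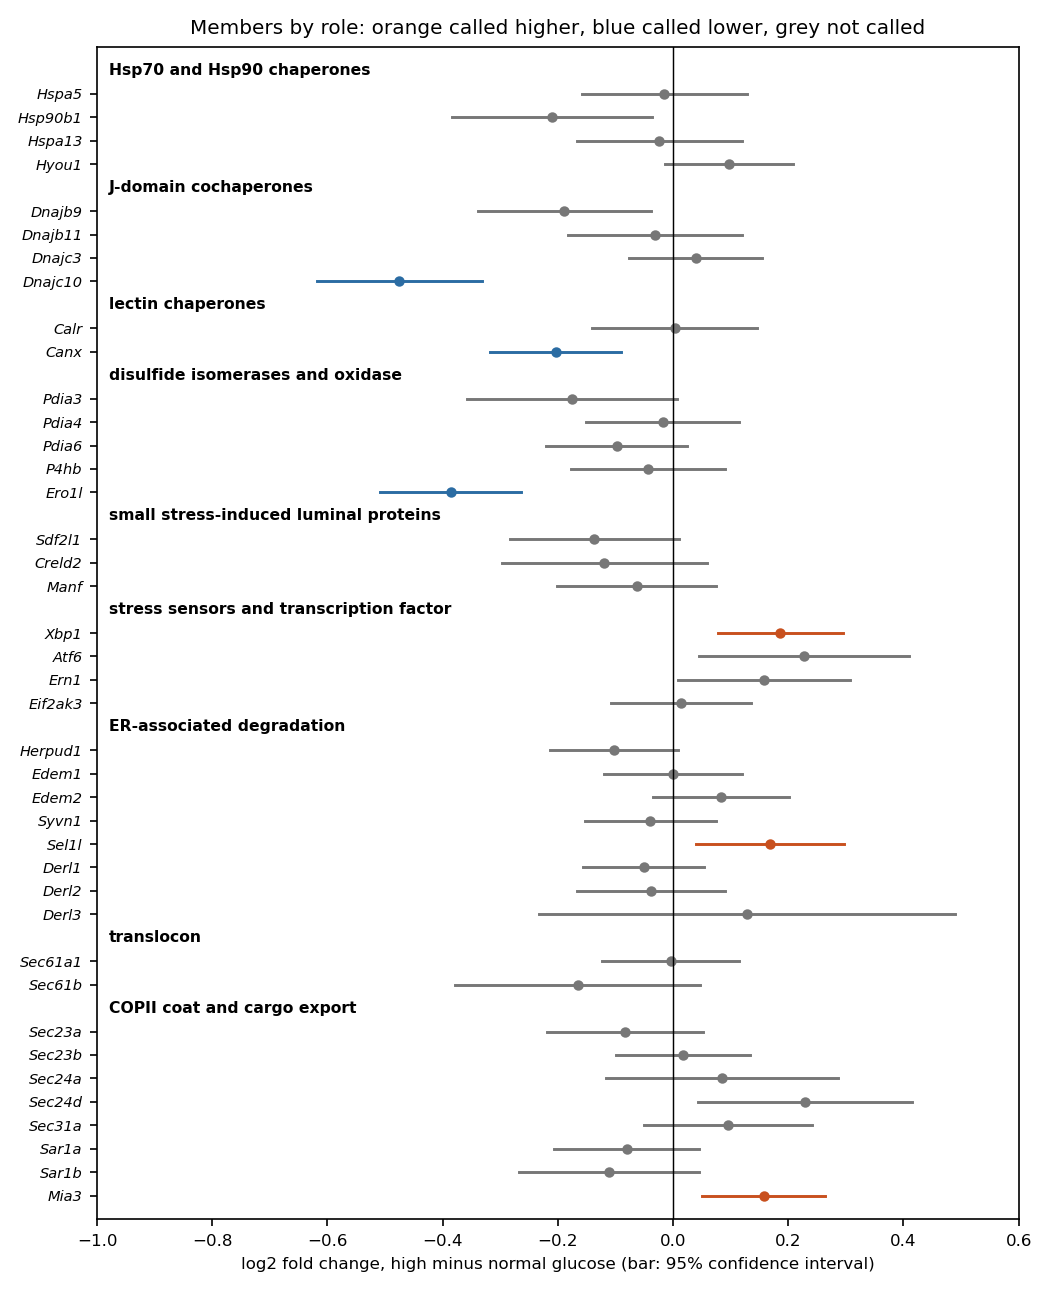
Log2 fold change (high minus normal glucose, x axis) of each of the 40 ER genes, grouped by role, with its 95% confidence interval from edgeR's quasi-likelihood fit. Dnajc10 at -0.48 and Ero1l at -0.39 lie furthest to the left, Hsp90b1 (not called) and Canx follow at -0.21 and -0.20, and most grey intervals cross 0.

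Normal glucose replicate 1 stood apart for these genes. It held the highest or the lowest of the 6 values for 31 of the 40 genes (77.5%), compared with 51.1% of all tested genes, while the other 5 libraries did so for between 4 and 14 genes. It was highest for Hspa5, Hsp90b1, Calr, Pdia3, P4hb and all 3 small luminal proteins, and lowest for all 4 sensor genes and for 6 of the 8 genes of COPII export. Without this library, 2 ER genes were called higher (Xbp1 and Mia3) and 5 lower (Canx, Dnajc10, Ero1l, Herpud1 and Sec23a), the median log2 fold change was -0.04, and 7 of the 40 genes changed sign. Sel1l was no longer called without it (log2 fold change 0.10, adjusted P = 0.109). This library had the fewest counts of the 6, and the part of depth in its place was not tested.

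**Figure D2:**
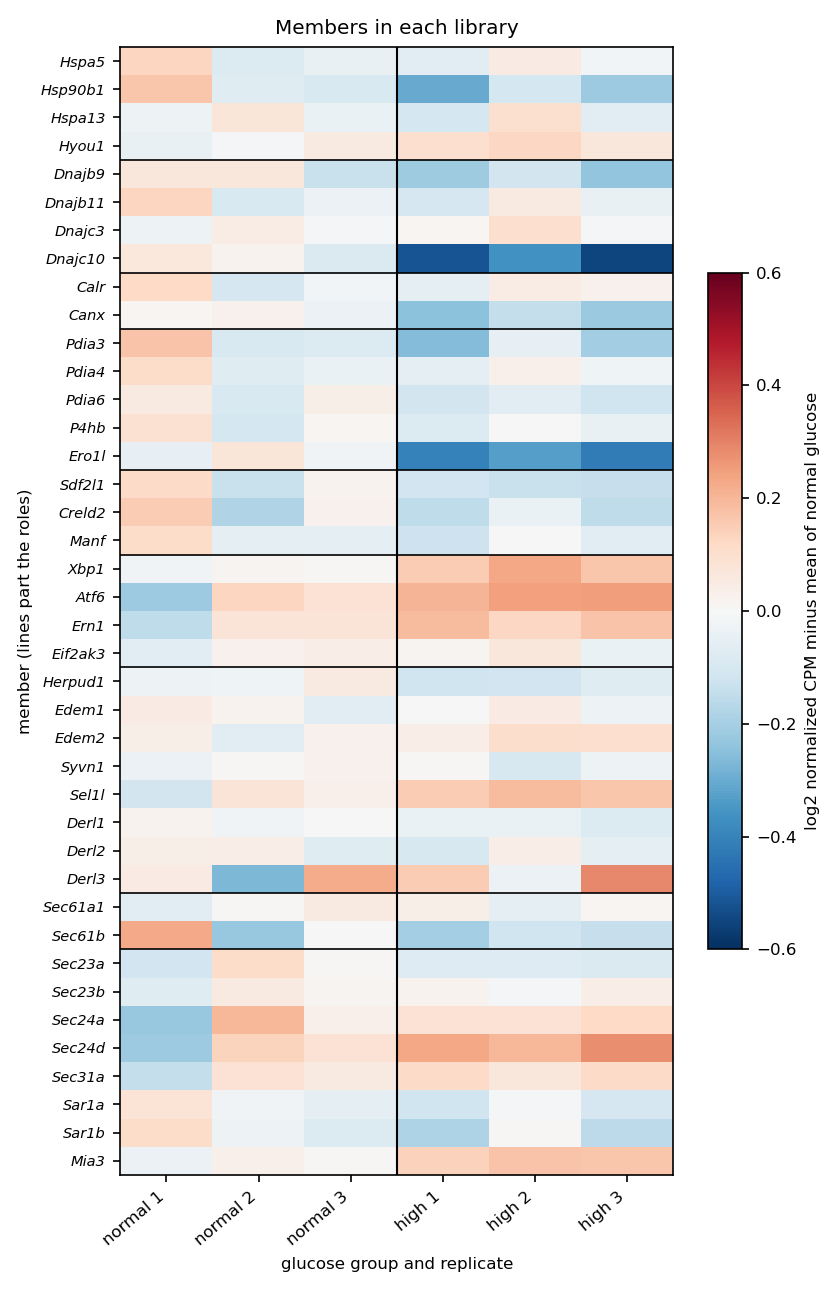
Log2 CPM of each ER gene in each library minus the mean of the normal glucose libraries (colour scale), with replicates as columns and genes as rows grouped by role. Dnajc10 and Ero1l are blue in all 3 high glucose libraries, and the column of normal glucose replicate 1 differs from the other normal columns in the chaperone, sensor and COPII rows.

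Promoter sequence shows which of these genes carry letters known to be read by the unfolded protein response. RefSeq windows from 250 bases before to 50 bases after the start (GRCm38.p6) were found for 34 of the 40 genes and not for Hspa13, Hyou1, Manf, Atf6, Derl1 and Sec61a1. The ER stress response element (ERSE, the boxes CCAAT and CCACG with 9 bases between them), which is bound by NF-Y together with ATF6 or XBP1, was searched on both strands. It was present in the windows of 9 ER genes (26.5%): Calr, Canx, Creld2, Derl3, Dnajc3, Hsp90b1, Hspa5, Pdia6 and Syvn1. Of all 32851 windows, 39 held it (0.119%). The sites below are shown because they belong to the chaperones whose values follow. They are printed on the strand that reads the motif, with 10 bases on each side and both boxes in capitals:
Hspa5, chr2:34772015-34772053, plus strand: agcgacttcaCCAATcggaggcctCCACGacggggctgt
Hsp90b1, chr10:86705628-86705666, minus strand: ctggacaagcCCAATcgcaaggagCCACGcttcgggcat
Hsp90b1, chr10:86705523-86705561, plus strand: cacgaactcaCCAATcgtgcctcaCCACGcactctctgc
Calr, chr8:84847065-84847103, plus strand: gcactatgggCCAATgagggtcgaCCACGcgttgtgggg
Canx, chr11:50325790-50325828, minus strand: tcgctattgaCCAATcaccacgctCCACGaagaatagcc
Pdia6, chr12:17266481-17266519, plus strand: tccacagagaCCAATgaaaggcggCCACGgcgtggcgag
Dnajc3, chr14:118937817-118937855, plus strand: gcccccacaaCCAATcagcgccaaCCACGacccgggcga

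The related ERSE-II (the boxes ATTGG and CCACG with 1 base between them) was found in 12 windows of all genes (0.0365%), among them those of Dnajb11 and Herpud1. The letters TGACGTG, the core of the element to which XBP1 binds, were found in 661 windows (2.01%), among them those of Hspa5, Mia3, Sec23a and Sec24d. The sites of Herpud1, whose product is a degradation cofactor, and of the export genes Mia3 and Sec24d are shown in the same way, with the motif in capitals:
Herpud1 ERSE-II, chr8:94386367-94386397, plus strand: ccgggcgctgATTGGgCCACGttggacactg
Mia3 core, chr1:183369635-183369661, minus strand: gagcccttgcTGACGTGtcactcgcag
Sec24d core, chr3:123267460-123267486, plus strand: cccgggcgccTGACGTGgcactagcaa

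Of the 9 genes with an ERSE, 0 were called higher and 1 lower (Canx), beside 16.9% and 14.5% of all tested genes, with a median log2 fold change of -0.04. At an unadjusted P value under 0.05, and likewise by DESeq2, 0 of the 9 were higher and 2 lower (Canx and Hsp90b1). Of the 19015 tested genes, 4272 were higher and 3763 lower at the unadjusted threshold, and 3116 and 2780 by DESeq2. Of the 14 genes with any of the motifs, 1 was called higher (Mia3) and 1 lower (Canx), with a median of -0.04. Of the 20 genes with a window but none of these letters, 2 were called in each direction, with a median of -0.03. A match of letters is a description and was not tested as a binding site. Only exact matches within these windows were counted, so the 20 genes are not a group known to lack such control. Sdf2l1, a classical target of ER stress, is among them.

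Among the Hsp70 and Hsp90 chaperones, 0 of 4 genes were called in either direction. At an unadjusted P value under 0.05 there were 0 higher and 1 lower, Hsp90b1, and DESeq2 called that gene lower. Hspa5 encodes BiP, the luminal Hsp70 that binds nascent chains and holds the sensors inactive. Its level was 1370, 1184 and 1217 CPM under normal glucose and 1197, 1296 and 1239 CPM under high glucose, and all 3 high glucose values lay inside the normal range, whose upper end was normal replicate 1. The log2 fold change of Hspa5 was -0.02 (95% confidence interval -0.16 to 0.13, adjusted P = 0.885). Hsp90b1 encodes GRP94, the luminal Hsp90. Hsp90b1 had 1789, 1516 and 1500 CPM under normal glucose and 1296, 1486 and 1372 CPM under high glucose. All 3 high glucose values were below all normal values, but high glucose replicate 2 lay just below normal replicates 2 and 3. Its log2 fold change of -0.21 ± 0.08 (SE) did not pass the threshold (adjusted P = 0.0659). Over the 17 fits, Hsp90b1 was called lower in 8. Hyou1, a large chaperone that exchanges the nucleotide of BiP, had 243 to 260 CPM under normal glucose and 262 to 273 CPM under high glucose, and Hspa13 lay between 74.2 and 85.3 CPM in all 6 libraries.

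Of the 4 J-domain cochaperones, which deliver substrates to BiP and stimulate its ATPase, 1 was called lower. Dnajc10 (ENSMUSG00000027006, GRCm38 chr2:80315466-80354043, plus strand) encodes ERdj5, a J-domain protein with thioredoxin domains that reduces disulfides of proteins bound for degradation. Its level was 222, 215 and 200 CPM under normal glucose and 148, 165 and 145 CPM under high glucose. The lowest normal value stood well above the highest high glucose value. Its mean was 212 ± 10.9 CPM and 153 ± 10.6 CPM (SD, n = 3 each), and it fell by 28.1%, a log2 fold change of -0.48 ± 0.06 (SE, adjusted P = 0.000307). This was the largest change of the 40 genes. The call was made in all 17 fits that were run, with log2 fold changes from -0.59 to -0.46. Dnajb9, whose product ERdj4 recruits BiP to IRE1, had 49.2, 49.3 and 42.8 CPM under normal glucose and 40.6, 43.6 and 39.9 CPM under high glucose. Its groups overlapped in 1 value, and its log2 fold change of -0.19 did not pass (adjusted P = 0.0567). Dnajb9 was called lower in 8 of the 17 fits. Dnajb11 and Dnajc3, cochaperones of BiP as well, spanned 149 to 175 CPM and 177 to 194 CPM and were not called.

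The lectin chaperones bind the monoglucosylated glycans of folding glycoproteins, calnexin (Canx) from the membrane and calreticulin (Calr) from the lumen. Canx (ENSMUSG00000020368, GRCm38 chr11:50293961-50325673, minus strand) had 724, 730 and 701 CPM under normal glucose and 606, 650 and 615 CPM under high glucose, and the groups were well separated. From means of 718 ± 15.7 and 623 ± 23.2 CPM (SD, n = 3 each), it fell by 13.2%, with a log2 fold change of -0.20 ± 0.05 (SE, adjusted P = 0.0122). The call was lost when high glucose replicate 1 or 3 was left out, in which case the highest adjusted P value was 0.0536. Calr, by contrast, had 1726, 1483 and 1573 CPM under normal glucose and 1530, 1641 and 1620 CPM under high glucose, and the high glucose values lay inside the normal range. Its log2 fold change was 0.0026 (95% confidence interval -0.14 to 0.145, adjusted P = 0.982).

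All 5 genes for disulfide formation had a log2 fold change below 0, with a median of -0.10, and 1 was called. Without normal glucose replicate 1, 4 of the 5 stayed below 0 and the median was -0.09, and with correction for GC content and length 1 of the 5 lay above 0. Ero1l (ENSMUSG00000021831, GRCm38 chr14:45283087-45318771, minus strand) encodes the oxidase that reoxidizes protein disulfide isomerase. Its level was 81.3, 88.6 and 82.9 CPM under normal glucose and 63.5, 67.0 and 62.9 CPM under high glucose, far apart relative to the spread within each group. From means of 84.3 ± 3.83 and 64.5 ± 2.24 CPM (SD, n = 3 each), it fell by 23.5%, with a log2 fold change of -0.39 ± 0.055 (SE, adjusted P = 0.000429). Ero1l was called in all 17 fits as well, with log2 fold changes from -0.50 to -0.36. The isomerases that Ero1l serves were far more abundant. P4hb, the classical protein disulfide isomerase, had 1650 to 1890 CPM under normal glucose and 1675 to 1774 CPM under high glucose. Pdia3, the isomerase that works with the lectin chaperones, had 1468, 1224 and 1229 CPM under normal glucose and 1086, 1258 and 1127 CPM under high glucose. Its log2 fold change of -0.18 did not pass (adjusted P = 0.131), and the groups overlapped through high glucose replicate 2. Pdia4 and Pdia6, further isomerases of the lumen, had 390 to 442 CPM and 400 to 451 CPM over all libraries.

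**Figure D3:**
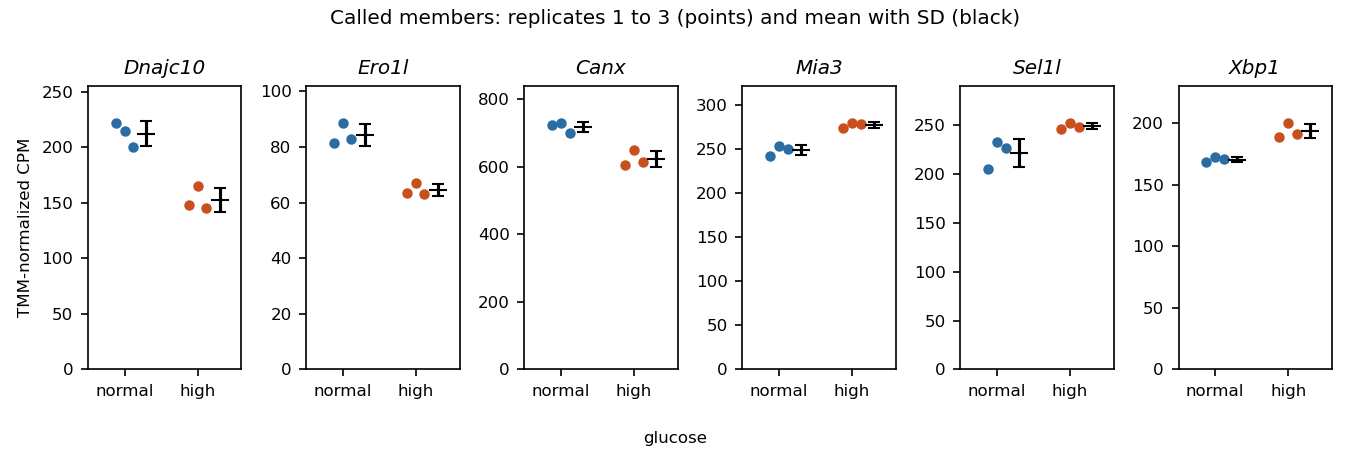
TMM-normalized CPM (y axes, each from 0) of the 6 called ER genes in the 3 normal (blue) and 3 high (orange) glucose libraries, with the mean and SD in black. In each panel the groups do not overlap, and the gap is widest, relative to the level, for Dnajc10 and Ero1l.

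The 3 small luminal proteins that are classical targets of ER stress were all not called. In this group 0 genes passed in edgeR, 0 had an unadjusted P value under 0.05, and DESeq2 called 0. Sdf2l1, a partner of luminal J-domain proteins, lay between 30.8 and 36.8 CPM, Creld2 between 49.5 and 62.4 CPM, and the secreted factor Manf between 175 and 206 CPM. Each was highest under normal glucose replicate 1. Exons of Manf share positions with Dcaf1 on the opposite strand and with Rbm15b on its own, so its count may hold reads of these genes.

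The 4 genes for the stress sensors and for XBP1 all had a log2 fold change above 0, with a median of 0.17, and 1 was called higher. Without normal glucose replicate 1, which was lowest for all 4, 3 remained above 0 and the median was 0.09. With upper quartile scaling, library size scaling or correction for GC content and length, 3 were above 0 too, Eif2ak3 being the exception, and the median after the GC and length correction was 0.068. The summed level of the 4 genes was 324, 356 and 353 CPM under normal glucose and 381, 394 and 383 CPM under high glucose, without overlap. Xbp1 (ENSMUSG00000020484, GRCm38 chr11:5520659-5525893, plus strand) encodes the transcription factor made from the mRNA that IRE1 splices, and gene counts do not separate its spliced form. Xbp1 had 168, 172 and 171 CPM under normal glucose and 189, 200 and 191 CPM under high glucose, a small but regular step. Its mean rose from 170 ± 2.34 to 194 ± 5.93 CPM (SD, n = 3 each), 13.8% more, with a log2 fold change of 0.19 ± 0.05 (SE, adjusted P = 0.0156). The call was made in 12 of the 17 fits and, of the 6 that left out a library, in those without normal replicate 1 or 2. In those 6 the adjusted P values ran from 0.0214 to 0.0962.

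Atf6 encodes the sensor that is itself a transcription factor after cleavage. Atf6 had 63.4, 80.6 and 78.1 CPM under normal glucose and 84.9, 87.2 and 87.7 CPM under high glucose. Normal replicate 1 lay far below the rest, and without it the log2 fold change went from 0.23 to 0.11, with adjusted P = 0.0594 and 0.0921. Atf6 was called higher in 3 of the 17 fits. Ern1 had 39.5, 46.3 and 46.4 CPM under normal glucose and 50.1, 47.9 and 49.5 CPM under high glucose, and its log2 fold change of 0.16 did not pass (adjusted P = 0.102). The value was 0.068 without normal replicate 1 and 0.022 after correction for GC content and length. Eif2ak3 ranged from 53.2 to 58.4 CPM with overlapping groups.

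Of the 8 genes of ER-associated degradation (ERAD), 1 was called higher. Sel1l (ENSMUSG00000020964, GRCm38 chr12:91806043-91849157, minus strand) encodes the adaptor that holds the ubiquitin ligase HRD1 (Syvn1) to its substrates. Its level was 205, 233 and 226 CPM under normal glucose and 246, 252 and 248 CPM under high glucose. The high glucose values were tight and above all normal ones, of which replicate 1 was the lowest. Its mean rose from 222 ± 14.4 to 249 ± 2.88 CPM (SD, n = 3 each), 12.3% more, with a log2 fold change of 0.17 ± 0.06 (SE, adjusted P = 0.0491). This call was near the threshold and was made in 4 of the 17 fits, and of the 6 that left out a library in the one without normal replicate 2. Syvn1 itself ranged from 80.4 to 87.6 CPM, with exons that share positions with Mrpl49 on the opposite strand. Herpud1, a cofactor of HRD1 and a common reporter of ER stress, had 79.7, 80.0 and 84.4 CPM under normal glucose and 74.9, 75.1 and 77.3 CPM under high glucose, lower by a small margin in all 3 libraries but not called (adjusted P = 0.147). The mannosidase-like Edem1 and Edem2, which mark glycoproteins for degradation, had 106 to 115 CPM and 27.9 to 31.4 CPM. The derlins, membrane proteins of the retrotranslocation step, differed widely in level. Derl1 had 139 to 149 CPM, Derl2 46.0 to 50.5 CPM and Derl3 0.775 to 1.14 CPM, the last being the lowest of the 40 genes with 106 to 153 counts per library. Derl2 shares exonic positions with Mis12 on the opposite strand.

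The translocon genes were not called. In this pair 0 genes passed in edgeR, 0 had an unadjusted P value under 0.05, and DESeq2 called 0. Sec61a1, the channel subunit, had 280 to 304 CPM over all libraries. Sec61b, a small accessory subunit, had 77.5, 56.6 and 66.3 CPM under normal glucose and 57.6, 60.9 and 60.2 CPM under high glucose, with the wider spread under normal glucose.

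Of the 8 genes for the COPII coat and its cargo, 1 was called higher. Mia3 (ENSMUSG00000056050, GRCm38 chr1:183326725-183369553, minus strand) encodes TANGO1, the transmembrane protein at ER exit sites that loads procollagen and other bulky cargo into carriers. Mia3 had 243, 254 and 250 CPM under normal glucose and 274, 280 and 279 CPM under high glucose, with little spread in either group. Its mean rose from 249 ± 5.59 to 278 ± 3.68 CPM (SD, n = 3 each), 11.5% more, with a log2 fold change of 0.16 ± 0.05 (SE, adjusted P = 0.0301). The call was made in 9 of the 17 fits and, of the 6 that left out a library, in those without normal replicate 1 or 2. Sec24d, a cargo-binding coat subunit needed for procollagen export, had 188, 240 and 232 CPM under normal glucose and 257, 251 and 265 CPM under high glucose. Normal replicate 1 was again the lowest, and the log2 fold change of 0.23 did not pass (adjusted P = 0.0604). Without that library it was 0.11 and did not pass either (adjusted P = 0.0947). Sec24d was called higher in 4 of the 17 fits. The remaining coat genes overlapped between the groups. Sec24a, a coat subunit related to Sec24d, had 26.8 to 36.0 CPM, Sec31a of the outer coat 373 to 446 CPM, Sec23a of the inner coat 177 to 207 CPM and Sec23b of the inner coat 53.6 to 58.5 CPM. The GTPases Sar1a and Sar1b, which start coat assembly, had 322 to 370 CPM and 55.0 to 67.7 CPM. Sec24a and Sar1b lie head to head on chromosome 11 with 52 bases between them.

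Scaled to the length of the merged exons, the highest levels of the 40 genes under normal glucose were those of P4hb (621 CPM per kilobase), Calr (554), Pdia3 (416), Hsp90b1 (397) and Hspa5 (297), and the lowest were those of Sec24a (2.96) and Derl3 (0.474). On this scale the oxidase Ero1l stood at 15.9 CPM per kilobase and Dnajc10 at 42.4.

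Ratios between related genes within a library do not depend on the scaling of libraries, and 7 such pairs were compared with two-sided exact permutation tests. With 3 samples against 3 the smallest P value is 0.1, so no ratio could pass. It is reached when the groups do not overlap, as in 4 of the 7 pairs (Benjamini-Hochberg adjusted P = 0.175 for each). Among single tested genes, high glucose lay wholly above normal for 25.1% and wholly below for 21.3%. The share among all pairs of genes was not computed. The ratio of counts of Hspa5 to Hsp90b1 was 0.766, 0.781 and 0.812 under normal glucose and 0.923, 0.872 and 0.903 under high glucose. This ratio of mRNA counts was higher in all 3 high glucose libraries, with a difference of means of 0.195 on the log2 scale. The ratio of Calr to Canx was 2.38, 2.03 and 2.25 under normal glucose and 2.53, 2.53 and 2.64 under high glucose, a difference of 0.21 on the log2 scale without overlap. In the coat, Sec24a to Sec24d was 0.143, 0.150 and 0.138 under normal glucose and 0.129, 0.133 and 0.129 under high glucose, and Sec23a to Sec23b was 3.30, 3.53 and 3.40 against 3.19, 3.25 and 3.12. Both coat ratios were lower under high glucose without overlap, by 0.14 and 0.10 on the log2 scale. The ratios of Sar1a to Sar1b, Edem1 to Edem2 and Derl1 to Derl2 overlapped (exact P = 0.4, 0.3 and 0.7, adjusted P = 0.467, 0.42 and 0.7).

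**Figure D4:**
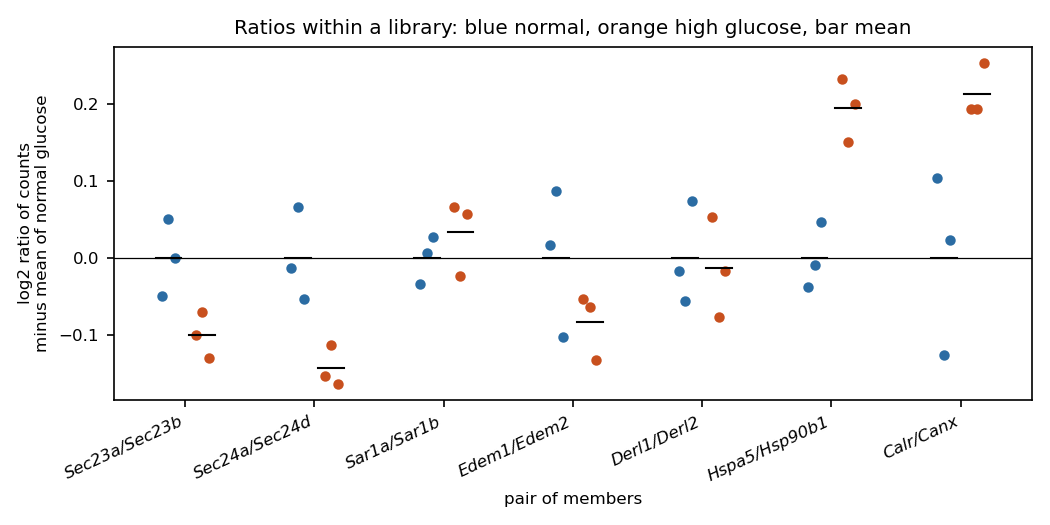
Log2 ratio of counts within each library minus its mean under normal glucose (y axis) for 7 pairs of related ER genes, with points for libraries (blue normal, orange high glucose) and bars for means. The Hspa5/Hsp90b1 and Calr/Canx ratios lie above all normal values in the 3 high glucose libraries, and Sec23a/Sec23b and Sec24a/Sec24d below.

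Other genes of the same pathways were listed by function, with earlier results of these data known, leaving out the 40 genes. Their counts are to be read beside the 16.9% higher and 14.5% lower among all tested genes and the 40.0% called among abundant genes. Of the 42 genes called in these lists, 20 were called in all 17 fits. Of 23 genes for signal peptide targeting and translocation, 2 rose and 3 fell. Over the 17 fits the counts were 1 to 2 and 0 to 11, with 0 lower when any 1 high glucose library was left out and 11 with library size scaling. Ssr2, a subunit of the translocon-associated complex, rose from 114 to 125 CPM under normal glucose to 144 to 152 CPM under high glucose (log2 fold change 0.30, adjusted P = 0.00244), while Sec61g, the third subunit of the channel, fell from 58.7 to 82.8 CPM to 50.2 to 57.0 CPM (log2 fold change -0.34, adjusted P = 0.0412). The other called genes of this list, Srp68 (0.14), Srp9 (-0.27) and Sec11c (-0.22), belong to the signal recognition particle and the signal peptidase, and the median of the list was -0.07. Srp68 was called in 4 of the 17 fits, Sec61g in 8 and Ssr2 in 17. Of 28 genes for N-glycan transfer and trimming, 3 rose and 2 fell, with a median of 0.04, and over the fits 1 to 4 and 1 to 9. Mogs, the glucosidase that removes the first glucose of the glycan, and the transferases Alg12 and Alg6 rose by log2 fold changes of 0.29, 0.28 and 0.28. Tusc3 and Magt1, oxidoreductase subunits of oligosaccharyltransferase, had log2 fold changes of -0.33 and -0.21. Of 13 other disulfide isomerases and oxidases tested, 1 rose (Pdia5, 0.26) and 2 fell (Tmx3, -0.28, and Tmx1, -0.20), the latter both membrane-bound thioredoxin proteins. Over the fits these counts were 0 to 4 and 0 to 4, and Pdia5 was not called when any 1 high glucose library was left out.

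Of 21 other ERAD genes, 2 rose and 1 fell (1 to 3 and 0 to 7 over the fits), with a median of -0.02. Os9, the lectin that hands glycoproteins to SEL1L, had 253, 230 and 256 CPM under normal glucose and 304, 310 and 310 CPM under high glucose (log2 fold change 0.32 at adjusted P = 0.00154). Herpud2 rose by a log2 fold change of 0.17, and the ubiquitin-conjugating enzyme gene Ube2g2 had -0.17. Of 29 other genes of the COPII coat and cargo receptors, 3 rose and 3 fell (2 to 5 and 3 to 7 over the fits), with a median of 0.02. Sec16a and Sec16b, scaffolds of ER exit sites where TANGO1 acts, rose by log2 fold changes of 0.35 and 0.33, and Sec16a had 125, 149 and 146 CPM under normal glucose and 180, 175 and 179 CPM under high glucose. The third called higher was Tmed3 (0.19), and those called lower were the tether subunit Trappc2 (-0.48) and the cargo receptors Cnih1 (-0.36) and Mcfd2 (-0.28). Of 17 genes of the COPI coat and the KDEL receptors, which return escaped ER proteins, 2 rose (Gbf1, 0.32, and Arfgap3, 0.18) and 2 fell (Copz2, -0.20, and Kdelr3, -0.17), and the median was -0.02. Over the fits 0 to 2 were higher and 0 to 8 lower, and 0 were lower when any 1 high glucose library was left out.

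Of 11 genes of the PERK, ATF4 and CHOP branch, 2 rose and 3 fell (0 to 2 and 3 to 8 over the fits). This was 45.5% called, with a median of -0.13. Chac1, a glutathione-degrading target of ATF4 and CHOP, had 3.72, 4.24 and 4.73 CPM under normal glucose and 2.43, 2.64 and 2.40 CPM under high glucose, the largest fall in this list (log2 fold change -0.77, adjusted P = 0.000471). Sesn2 and the asparagine synthetase gene Asns, both targets of ATF4, fell too (log2 fold changes -0.25 and -0.24). Cebpb and Ppp1r15b, the latter a subunit of the phosphatase that reverses PERK signaling, rose by 0.33 and 0.25 on the log2 scale. Ddit3, which encodes CHOP, had 26.4 to 30.5 CPM under normal glucose and 25.2 to 25.9 CPM under high glucose and did not pass (adjusted P = 0.053).

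Of 9 other genes for transcription factors of the ATF6 and CREB3 kind, their cofactors and the proteases that cleave them, 4 rose and 0 fell, or 44.4% called, with a median of 0.15. The number higher was 2 with upper quartile or library size scaling, without the filter, and without normal replicate 3 or any 1 high glucose library. At an unadjusted P value under 0.05, 0 were lower, and DESeq2 called 5 higher and 0 lower. Creb3l1 encodes an ER membrane factor known for driving collagen genes. It had 80.0, 81.3 and 85.0 CPM under normal glucose and 107, 111 and 109 CPM under high glucose (log2 fold change 0.41, adjusted P = 0.000148). Mbtps1, which encodes the site 1 protease that cleaves ATF6, had 226, 256 and 260 CPM under normal glucose and 303, 307 and 309 CPM under high glucose (log2 fold change 0.31, adjusted P = 0.00345). The other genes called were Nfyb (0.22), a subunit of the NF-Y that reads the CCAAT box shown above, and Creb3l2 (0.18). Creb3l1 and Mbtps1 were called in all 17 fits, Nfyb in 10 and Creb3l2 in 8.

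Of 11 genes for collagen folding and for the collagens themselves, 7 rose and 0 fell (6 to 8 and 0 to 1 over the fits), or 63.6% called, with a median of 0.34. This list was chosen with earlier results of these data known, and its share was not tested against that of all genes. At an unadjusted P value under 0.05, 1 was lower (Fkbp14, a prolyl isomerase), and DESeq2 called 8 higher and 0 lower. The 5 collagen chains Col3a1, Col1a1, Col5a1, Col1a2 and Col5a2 rose by log2 fold changes of 1.39, 0.76, 0.59, 0.48 and 0.39. Of these chains, 3 are also in the fibroblast marker list whose summed level differed between the groups, and the part of cell types was not tested. Serpinh1, the collagen chaperone HSP47, had 1615, 1623 and 1772 CPM under normal glucose and 2147, 2075 and 2125 CPM under high glucose (log2 fold change 0.34, adjusted P = 0.000902), and Ppib, a prolyl isomerase of the ER, rose by 0.21 on the log2 scale. Against these values the general chaperones Hspa5 and Calr, at -0.02 and 0.0026, had 95% confidence intervals that ended at 0.13 and 0.145.

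**Figure D5:**
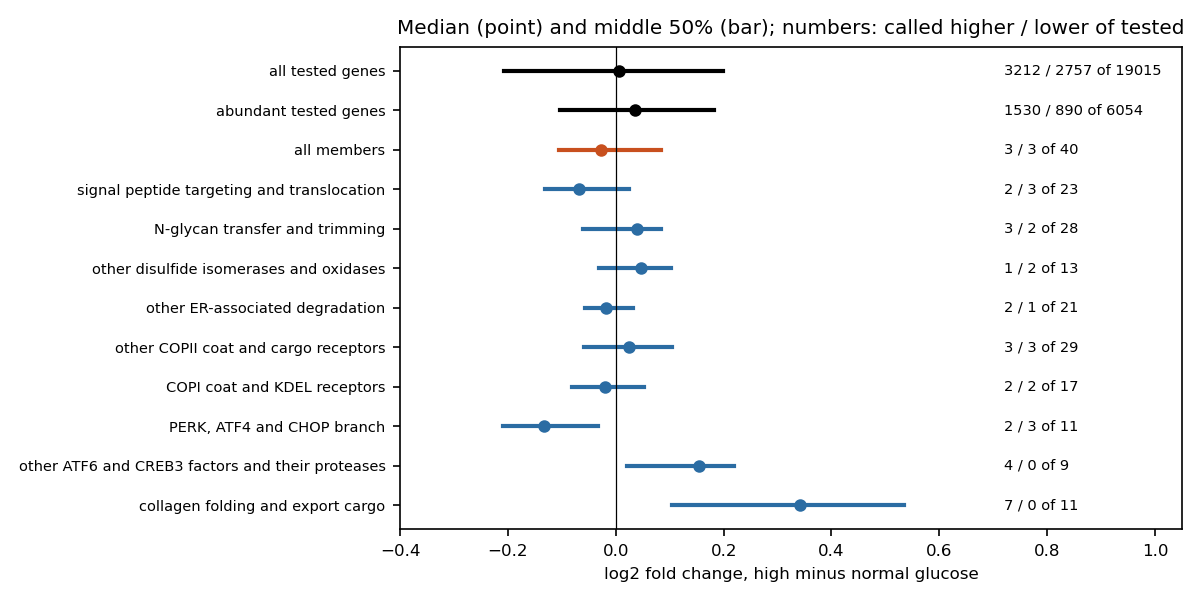
Median (point) and middle 50% (bar) of the log2 fold change (x axis, high minus normal glucose). Rows are all tested genes, the 6054 abundant genes, the 40 ER genes (orange) and the related gene lists (blue). The numbers called higher and lower of those tested are at the right. The median of the ER genes is -0.03 and that of the collagen list 0.34. The lists were chosen with earlier results of these data known.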

How the data were processed

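Polyadenylated RNA of 6 cultures was sequenced. The authors trimmed reads with Trimmomatic, aligned them to GRCm38 (mm10) with HISAT2 and obtained 1 count per gene and sample with StringTie, and the raw counts were deposited. Tool versions, annotation release and use of strand are not given in the sources used here. The labels name TRIzol and the DNBSeq platform, whereas the methods name a QIAGEN kit and an Illumina HiSeq system. Both reads of a pair may have been counted and PCR copies are not independent molecules. The counts may thus overstate the number of molecules, which is why they were also halved. Standard errors and P values of the fits take in the spread between replicates as well as counting error.

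Groups, replicate numbers and glucose came from the sample titles and treatment labels. The 40 members, the related gene lists and the markers were chosen with earlier results of these data known. Identifiers were matched to symbols with a reference table (55141 of 55487, the rest holding 0.034% of the counts), and positions and exons came from GENCODE vM21. In R 4.3.3 with edgeR 4.0.16, genes were filtered with filterByExpr (minimum count 10, minimum total count 15), normalized with TMM and tested with glmQLFit and glmQLFTest, with Benjamini-Hochberg adjustment over all 19015 genes at 0.05. Standard errors and 95% intervals were derived from the test statistic. The fit was checked on simulated counts. The biological coefficient of variation was 8.44%, and a floor of 3 counts corresponded to 0.0211 to 0.0258 CPM. Replicates differed by more than sampling noise (chi-square per degree of freedom at least 9.03). TMM factors were 1.03 to 1.05 in normal and 0.954 to 0.966 in high glucose.

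By rule, per-sample values were given for called members with a log2 fold change of at least 0.3 in size (Dnajc10 and Ero1l) and for the genes of ratios, and up to 3 called genes per direction were named from each related list. The per-sample values of other members, the count of extremes per library, Fkbp14 and Ddit3 were chosen after values were seen. Alternatives were DESeq2 1.42.0, robust fitting, other scalings, no filter, stricter thresholds, the replicate block, correction for GC content and length with mgcv 1.9.3, halved counts and each library left out. Nothing else of the study was analysed here.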

Additional observations from a re-analysis of the deposited data

How the results depend on the processing

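Dnajc10 and Ero1l were called in all 17 fits and Canx in 15. The number of ER genes called higher (3) became 5 with DESeq2, 1 with upper quartile scaling, 0 with library size scaling, 1 without the filter, 0 at an adjusted P value under 0.01, 0 at a log2 fold change of at least 0.3, and 0 to 5 when each library was left out. The 0 with library size scaling was also 0 at an unadjusted P value under 0.05. The number called lower (3) became 5 with DESeq2, RLE scaling or halved counts, 6 with upper quartile scaling and 17 with library size scaling. It was 2 to 8 when each library was left out. The 17 of 40 members stood beside 4884 of all 19015 tested genes called lower with library size scaling, a larger share of the members. That scaling called 1819 of all genes higher. With each library left out, 1988 to 3149 of all genes were called higher and 2048 to 3065 lower, against 3212 and 2757 in the main fit. Library size scaling moved the median of all tested genes to -0.11, and lower genes made up 72.9% of all calls against 46.2% with TMM and 56.5% with upper quartile scaling. The median of the members was -0.071 with upper quartile scaling, -0.143 with library size scaling and -0.067 to -0.022 when each library was left out. With the replicate block, 2 members were called higher (Atf6 and Xbp1) and 4 lower (Canx, Dnajb9, Dnajc10 and Ero1l), and Mia3 and Sel1l were lost. The labels do not say whether the replicate numbers pair across groups. Deviations of same-numbered libraries correlated at -0.025, 0.0038 and 0.013, which cannot settle it with 3 libraries per group.

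Calr, at 0.0026, turned to -0.0025 with DESeq2, -0.0090 with RLE scaling, -0.041 with upper quartile scaling, -0.11 with library size scaling, -0.017 without the filter and -0.017 with halved counts, and ran from -0.057 to 0.045 when each library was left out. Hspa5 ran from -0.067 to 0.033 and the log2 ratio of Derl1 to Derl2 from -0.047 to 0.025 in the same way. Where a value moved, the cause was not tested. Of the members, Derl3 had the least depth, with 106 to 153 counts per library.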
